A study of Mus musculus with 6 samples.

Results

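Small nucleolar RNAs (snoRNAs) and small Cajal body RNAs (scaRNAs) were counted in total RNA of embryonic mouse brain, and were compared between females and males. They were chosen as all transcript IDs whose gene symbol starts with Snora, Snord or Scarna and a digit. The rule found 107 of 23485 transcript IDs, which were 33 H/ACA snoRNAs (Snora), 65 C/D snoRNAs (Snord) and 9 scaRNAs (Scarna). All samples were whole brain of wild-type C57BL/6 embryos at E15.5 (embryonic day), with no treatment. Females and males had 3 samples each, made of RNA pooled from 2 to 3 embryos that had been sexed by the testicular cords of the gonad. A sample is therefore an average over a few embryos, and neither litter nor batch is given in the labels.

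SnoRNAs are short, stable guide RNAs of the nucleolus. Most pair with a stretch of ribosomal RNA and bring a set of proteins to it: C/D snoRNAs direct 2′-O-methylation by fibrillarin, and H/ACA snoRNAs direct conversion of uridine to pseudouridine by dyskerin. ScaRNAs do the same for the small nuclear RNAs of the spliceosome, are held in Cajal bodies, and may carry C/D parts, H/ACA parts or both. Most mammalian guides have no promoter of their own. They are cut from the introns of host genes, many of which code for ribosomal proteins or for non-coding Snhg transcripts whose introns are the lasting product.

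The members were placed in the genome with GENCODE vM1 on NCBIM37 (mm9), in which 94 of 107 had a locus of the same symbol. RefSeq placed 101 inside 1 longer gene, without a check of strand, and 3 (Scarna2, Snord118 and Snord89) in none. Of these 101 members 78 had a protein-coding and 23 a long non-coding host. In GENCODE, 59 lay in an intron of a same-strand gene, Snord89 among them, 24 in an exon and 4 in an exon in part. The annotated lengths differed between the classes at the median but their ranges overlapped. The 53 C/D snoRNAs ran from 64 to 238 nt (median 77), the 32 H/ACA snoRNAs from 127 to 196 nt (median 132.5) and the 9 scaRNAs from 70 to 414 nt (median 140).

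Sequences are given for the members on which the results below turn, as DNA letters of NCBIM37 in the sense of the RNA. Scarna10 (chr6:125136377-125136701, minus strand) lies in an intron of Ncapd2, Scarna6 (chr1:89681131-89681395, plus strand) in an intron of Atg16l1, and Scarna13 (chr12:106269285-106269559, minus strand) within the non-coding gene Snhg10. The first 2 were among the members highest in male sample 1, and Scarna13 had the most counts over the 6 samples and varied little. Capitals mark TGAG, the letters of the CAB box that holds an RNA in the Cajal body. In these 3 RNAs it follows a C and so also reads as the D box letters CTGA, and which box a marked stretch serves is not shown by the letters. Of Scarna10 the first 300 of 325 bases are shown.
Scarna10: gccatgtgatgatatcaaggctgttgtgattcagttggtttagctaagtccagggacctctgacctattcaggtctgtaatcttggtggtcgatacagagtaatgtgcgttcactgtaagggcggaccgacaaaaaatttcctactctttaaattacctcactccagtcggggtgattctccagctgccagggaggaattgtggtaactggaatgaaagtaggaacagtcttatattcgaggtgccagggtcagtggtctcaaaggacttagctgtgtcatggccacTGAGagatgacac
Scarna6: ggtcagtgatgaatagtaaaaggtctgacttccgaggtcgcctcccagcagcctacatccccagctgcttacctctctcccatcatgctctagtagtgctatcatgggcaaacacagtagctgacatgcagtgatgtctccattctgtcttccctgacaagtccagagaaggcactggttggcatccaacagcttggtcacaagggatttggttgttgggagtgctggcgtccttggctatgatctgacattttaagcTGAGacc
Scarna13: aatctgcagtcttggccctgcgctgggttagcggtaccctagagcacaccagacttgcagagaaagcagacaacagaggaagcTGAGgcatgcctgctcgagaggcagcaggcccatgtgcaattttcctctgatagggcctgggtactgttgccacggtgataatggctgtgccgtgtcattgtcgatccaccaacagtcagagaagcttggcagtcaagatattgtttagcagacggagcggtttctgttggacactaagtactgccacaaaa

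Snord17 (chr2:144091715-144091952, minus strand, in an intron of Snx5) is the longest C/D member. Snord104 (chr11:106362307-106362376, plus strand), Snord64 (chr7:67123694-67123760, minus strand) and Snord22 (chr19:8800356-8800481, plus strand) had the next most counts of the class. Snord104 (70 nt) and Snord64 (67 nt) show the small form of this class, and Snord22 (126 nt) lies between them and Snord17. Capitals mark every TGATGA, the letters of the C box, and every CTGA, those of the D box. The working boxes lie near the 5′ and the 3′ end, and all 4 also hold internal matches. Snord22 holds no TGATGA.
Snord17: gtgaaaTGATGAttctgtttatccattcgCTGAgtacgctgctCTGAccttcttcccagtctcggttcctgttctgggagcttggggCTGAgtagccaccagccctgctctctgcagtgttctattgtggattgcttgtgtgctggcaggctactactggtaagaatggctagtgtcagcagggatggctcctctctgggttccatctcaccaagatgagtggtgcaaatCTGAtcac
Snord104: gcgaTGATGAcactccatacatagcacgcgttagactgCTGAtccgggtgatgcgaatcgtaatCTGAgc
Snord64: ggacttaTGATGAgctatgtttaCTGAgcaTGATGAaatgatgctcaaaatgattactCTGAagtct
Snord22: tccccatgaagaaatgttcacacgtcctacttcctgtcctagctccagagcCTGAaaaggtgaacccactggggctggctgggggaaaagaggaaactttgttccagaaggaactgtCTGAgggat

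Snora65 (chr2:32818811-32818940, plus strand, in Rpl12) has the usual length of its class, and Snora23 (chr7:117189878-117190061, plus strand, in an intron of Ipo7) is one of its longer members and had the widest spread of those with a mean of 20 or more counts. Capitals mark the ACA within the last 8 bases that defines the 3′ end of an H/ACA RNA.
Snora65: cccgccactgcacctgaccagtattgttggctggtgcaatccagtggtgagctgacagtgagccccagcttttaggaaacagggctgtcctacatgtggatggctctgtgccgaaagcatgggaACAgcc
Snora23: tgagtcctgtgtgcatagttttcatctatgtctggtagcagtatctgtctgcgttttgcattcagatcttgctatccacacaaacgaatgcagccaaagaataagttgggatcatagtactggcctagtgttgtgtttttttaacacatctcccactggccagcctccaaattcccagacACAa

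The classes named by symbol carried the letters that define them. On the RNA strand, TGATGA was found in 34 of 53 C/D loci (64.2%) and in 0 of 32 H/ACA loci, against 1.52% of 32851 RefSeq promoter windows of 77 nt. TGATGA followed by CTGA was found in the same 34 C/D loci and in 0.414% of the windows, while CTGA alone, found in 53 of 53 C/D loci, was also in 33.8% of the windows. ACA stood in the last 8 bases of 30 of 32 H/ACA loci (93.8%), of 6 of 53 C/D loci and of 7.04% of windows. The loose H box pattern ANANNA was in 32 of 32 H/ACA loci and in 68.2% of windows of 132 nt. Of the 9 scaRNAs, 8 held TGAG, 6 held TGATGA and 4 ended in ACA, and TGAG was in 49.8% of windows of 140 nt. CTGA and TGAG overlap wherever CTGAG occurs. A letter match is a description and no site was tested.

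Library totals ran from 4908565 to 10294443 counts, and a count of 0 allowed up to 0.291 to 0.611 CPM (counts per 1000000 counts of the library), for counting error only. Xist, Ddx3y and Kdm5d matched the labelled sex in all 6 samples. Male sample 1 stood apart: it had the highest total, the most IDs at 0 (6743, against 4120 to 6280), and 4.26% of its counts on the ribosomal RNA transcript NR_046233, against 1.06% to 2.5% in the others. Its chi-square per degree of freedom against the other males was 34.4 and 44.9, where all other pairs of 1 sex had 9.03 to 13.8. Neuronal markers (4 of 4 in the tables) summed to 2287 to 2635 CPM in females and 2477 to 3259 in males, highest in male sample 1. Markers of skeletal muscle (3 of 4 in the tables, none at 0) summed to 3599 to 4051 CPM in females and 3299 to 3942 in males, and those of epidermis (4 of 4, none at 0) to 856 to 947 in females and 752 to 1491 in males, highest in male sample 1. Cartilage markers (4 of 4) summed to 95.3 to 184 CPM in females and 52.9 to 129 in males, lowest in male sample 1. The samples labelled brain thus also held RNA of muscle and skin genes. In such pooled tissue fewer cells of a type and less RNA per cell cannot be told apart.

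Much of the snoRNA and scaRNA count fell on a few transcripts. Together the 107 members took 0.0285% to 0.0562% of a library's counts. All 107 had a count somewhere, 75 had one in all 6 samples, and 32 were at 0 in at least 1 sample, but the median member averaged 6.67 counts and only 4 members reached 100 counts in every sample. These 4 were Scarna13, Snora74a, Snord17 and Scarna10. A member entered the sex comparison if any sample gave it 10 counts or more, which 68 of 107 did (63.6%, against 56.9% of all IDs): 23 of 33 H/ACA, 39 of 65 C/D and 6 of 9 scaRNAs. The other 39 had at most 9 counts in any sample. The tested members averaged 10.2 counts at the median, against 136 over all tested IDs, and 18 averaged 20 or more. Whether fragments this short were retained when libraries were made is not given in the sources used here.

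Levels between members were compared per kilobase of GENCODE length (RefSeq length for the 6 of 68 tested members without one), in CPM scaled by TMM (trimmed mean of M-values) factors. Over the 68 tested members they ran from 4.27 to 289 CPM per kb, with a median of 14.96. Snora74a, known as U19 and a guide for the large ribosomal RNA, had the highest mean at 289 CPM per kb, followed by Snord17 (245) and Scarna13 (244). These 3 could not be ordered, since each ranged over 1.61-fold or more between samples, and without male sample 1 the means were 215, 192 and 239 CPM per kb. Then came Scarna10 (155) and Snord104 (136), which changed places without male sample 1 (114 and 135), and then Snord64 (86.4) and Scarna6 (60.4). The order depends on the annotated length: RefSeq lists 71 nt for Scarna10 in place of 325, and 61 nt for Scarna2 in place of 414, which would put Scarna10 at 711 CPM per kb. Across the 94 members with a GENCODE length, length and mean CPM had a Spearman correlation of 0.28, a description over points from the same 6 libraries.

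**Figure D1:**
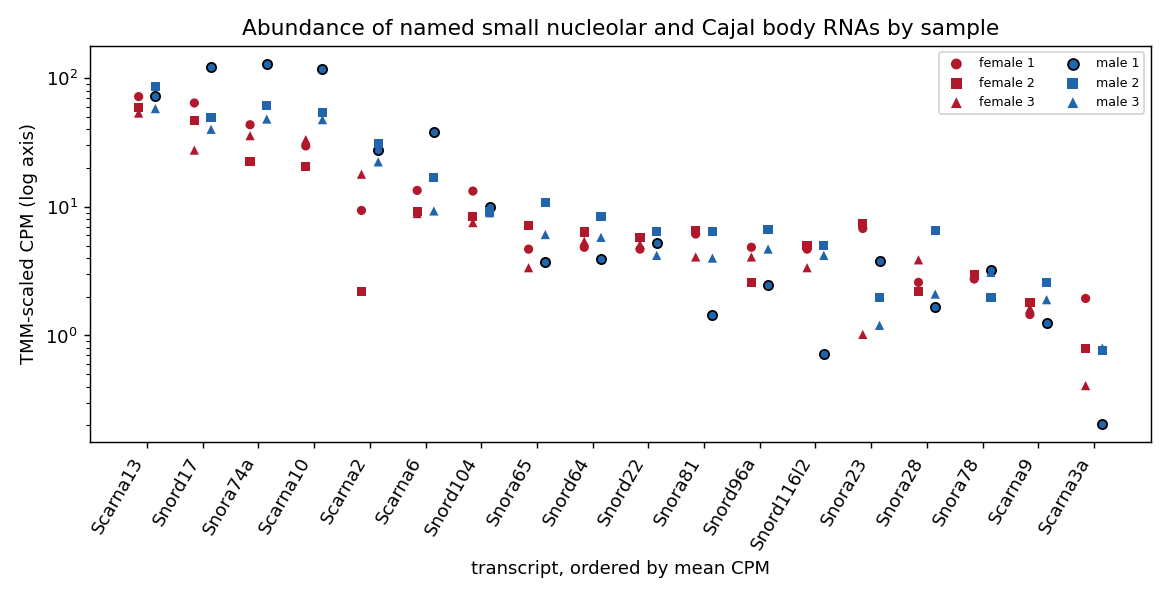
TMM-scaled CPM (log axis) of the 18 named members in each sample, ordered by mean level; red points are female and blue points male samples, the shape gives the replicate and male sample 1 has a black outline. Male sample 1 is the top point for Snora74a, Snord17, Scarna10, Scarna6 and Snora78 and the bottom point for Snord116l2, Snord64, Snord96a, Snora28, Snora81, Scarna3a and Scarna9.

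The comparison of males with females asked which guide RNAs differ by sex before birth. No member passed the test: 0 of 68 were called at an adjusted p under 0.05 (edgeR's quasi-likelihood test, Benjamini-Hochberg over all 13374 tested IDs), where 0.0299% of all tested IDs were. At an unadjusted p under 0.05 there were 4 members (5.88%), against 11.5% of all tested IDs. These 4 were Scarna10, Snora74a, Scarna2 and Scarna6, all with higher values in males, a direction that 6.68% of all IDs took at that level. The 3 female and 3 male values did not overlap for 7 members (10.3%), against 17.1% of all tested IDs, so by neither measure did the members as a whole stand above the background. By class, 3 of 6 scaRNAs, 1 of 23 H/ACA and 0 of 39 C/D snoRNAs were at an unadjusted p under 0.05, and 2, 2 and 3 did not overlap. DESeq2 called 1 member, Scarna10, where it called 0.8% of all IDs. With 1 RUVr factor, which removes a direction of residual variation as the study did, Scarna10 was again the 1 member called, by DESeq2 (2.77% of all IDs) and by edgeR (0.269%). With no filter on low counts edgeR called 5 members (1.18% of all IDs): Scarna10, Scarna2, Scarna6, Snora74a and Snord17.

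Scarna10, known as U85, is a guide with both C/D and H/ACA parts that acts on the U5 small nuclear RNA. It had 184, 104 and 327 counts in the females and 1132, 357 and 477 in the males. That is 29.8, 20.7 and 33.3 CPM in females and 117, 54.5 and 47.6 in males. Every male lay above every female, and male sample 1 was far above the other males. The means were 27.9 ± 6.49 and 73.0 ± 38.2 CPM (SD, n = 3 each), a log2 fold change of 1.38 (SE 0.30) with an edgeR adjusted p of 0.338. Without male sample 1 it was 0.85 (SE 0.19, edgeR adjusted p = 0.125), so the difference was smaller and its error smaller too.

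Scarna2 is a guide for the U2 small nuclear RNA and one of the few with a promoter of its own. Its counts were 58, 11 and 176 in females and 270, 204 and 224 in males. In CPM these were 9.38, 2.19 and 17.9 against 27.9, 31.1 and 22.4. The sexes did not overlap, the males were close together, and the females spread widely, with female sample 2 lowest. The fitted log2 difference of 1.39 (SE 0.43, edgeR adjusted p = 0.341) hardly moved without male sample 1, at 1.35 (edgeR adjusted p = 0.243). Over all fits it ran from 0.96 to 2.19.

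Scarna6 had 83, 46 and 87 counts in females and 371, 111 and 93 in males, or 13.4, 9.17 and 8.87 against 38.3, 16.9 and 9.29 CPM. Here the sexes overlapped and male sample 1 alone was far above the rest. The log2 fold change of 1.04 (SE 0.40, edgeR adjusted p = 0.379) was 0.31 (edgeR adjusted p = 0.798) without that sample. Scarna13, known as U93 and built of H/ACA units, had 445, 295 and 526 counts in females and 709, 567 and 581 in males. Its CPM of 61.5 ± 9.46 and 72.6 ± 14.3 overlapped, with a log2 fold change of 0.24 (SE 0.17, edgeR adjusted p = 0.593). Of the low scaRNAs, Scarna9 had 9 to 19 counts (log2 fold change 0.22, SE 0.54, and 0.45 without male sample 1) and Scarna3a had 2 to 12 (-0.80, SE 0.90, and -0.38). Neither could be separated from 0 at this depth. The other 3 scaRNAs were not tested.

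Among H/ACA snoRNAs, Snora74a had 269, 113 and 351 counts in females and 1251, 400 and 482 in males. The CPM were 43.5, 22.5 and 35.8 against 129, 61.0 and 48.1. The sexes did not overlap, and male sample 1 was again the highest. The means were 33.9 ± 10.6 and 79.5 ± 43.6 CPM, with a log2 fold change of 1.22 (SE 0.32, edgeR adjusted p = 0.338), and of 0.67 (edgeR adjusted p = 0.279) without male sample 1. Snora23 went the other way in its means, with 42, 37 and 10 counts in females and 37, 13 and 12 in males. Female sample 3 lay with the lowest males, so the groups overlapped, and the fitted difference of -1.06 on the log2 scale (SE 0.64) had an edgeR adjusted p of 0.530. Without male sample 1 it was -1.64 (SE 0.65, edgeR adjusted p = 0.410). Snora65, a guide hosted by the ribosomal protein gene Rpl12, had 29, 36 and 33 counts against 36, 71 and 61 (0.45, SE 0.42, and 0.76 without male sample 1). Snora81, hosted by Eif4a2, had 38, 33 and 40 counts against 14, 42 and 40 (-0.51, SE 0.46), with male sample 1 alone low, and was at -0.10 without it. Snora28 (11 to 43 counts, 0.19, SE 0.54) and Snora78 (13 to 31 counts, -0.06, SE 0.41) had errors far above their differences, and were at 0.51 and -0.17 without male sample 1.

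Among C/D snoRNAs, Snord17 had 397, 236 and 271 counts in females and 1179, 323 and 401 in males. In CPM these were 64.2, 47.0 and 27.6 against 122, 49.3 and 40.1. Female sample 1 lay above male samples 2 and 3, so only male sample 1 stood out. The log2 fold change of 0.62 (SE 0.37, edgeR adjusted p = 0.527) became -0.05 without it. Snord104 had 82, 42 and 74 counts in females and 96, 60 and 90 in males (-0.05, SE 0.27). Snord22, known as U22 and needed for maturation of the small ribosomal RNA, had 29, 29 and 50 counts against 51, 42 and 42 (0.02, SE 0.31). Both were level between the sexes within their error. Snord96a, hosted by the ribosome-bound scaffold gene Rack1, had 30, 13 and 40 counts against 24, 44 and 47 (0.24, SE 0.42, and 0.54 without male sample 1).

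Snord64 and Snord116l2 come from the imprinted Snhg14 transcript of the Prader-Willi region and have no known target in ribosomal RNA. Snord64 had 30, 32 and 53 counts in females and 38, 55 and 58 in males (log2 fold change 0.11, SE 0.34). Snord116l2 had 29, 25 and 33 counts in females and 7, 33 and 42 in males (-0.40, SE 0.55). Both were lowest in male sample 1, and without it Snord116l2 was at 0.10 and Snord64 at 0.35. Snord116 RNAs form a family of near-identical copies, so the count of Snord116l2 is uncertain. The tested members without overlap between the sexes were, beside Scarna10, Snora74a and Scarna2, the low Snord43, Snord55 and Snora61 (higher in males) and Snord42b (higher in females), with means of 5 to 8.5 counts. These 4 were named after their values were seen, and their edgeR adjusted p was 0.473, 0.874, 0.555 and 0.523 in that order.

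**Figure D2:**
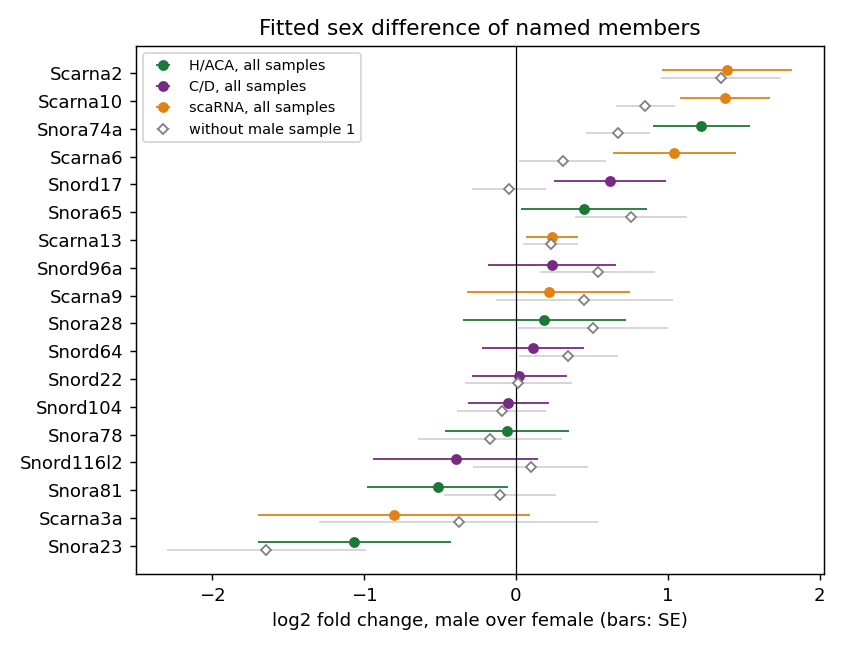
Fitted log2 fold change (male over female) of the 18 named members with bars of 1 SE; filled circles use all samples, coloured by class, and open diamonds leave out male sample 1. Without male sample 1 Scarna10 moves from 1.38 to 0.85, Snora74a from 1.22 to 0.67, Scarna6 from 1.04 to 0.31 and Snord17 from 0.62 to -0.05, while Scarna2 stays near 1.39, at 1.35.

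By class, the median log2 fold change of tested members was 0.11 for H/ACA, 0.11 for C/D and 0.64 for scaRNAs, beside -0.01 over all tested IDs. Without male sample 1 the medians were 0.24, 0.22 and 0.38, beside 0.00. The C/D median was -0.10 without male sample 2 and -0.013 without male sample 3, so its sign depended on single samples. The median absolute log2 fold change was 0.37 for members and 0.24 for all tested IDs, at a far lower median count of the members. The scaRNA median rests on 6 transcripts. No class was tested as a whole.

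Levels were also summed over all members of a class. H/ACA snoRNAs summed to 80.6 ± 12.7 CPM in females and 127 ± 36.4 in males, and C/D snoRNAs to 122 ± 32.1 and 148 ± 26.9. Both overlapped between the sexes. ScaRNAs summed to 128, 94.1 and 117 CPM in females and 258, 193 and 141 in males (113 ± 17.4 and 197 ± 58.7), and every male lay above every female. Without male sample 1 the male means were 108, 134 and 167 CPM. Without Snora74a the H/ACA sum was 46.7 CPM in females and 47.3 in males, and without Snord17 the C/D sum was 75.6 and 77.3. Male sample 1 was the lowest sample for both of these reduced sums, at 35.7 and 53.2 CPM. With it left out as well, their male means were 53.1 and 89.4 CPM. The means were thus level only with male sample 1 included, and the sexes overlapped in both sums. Without Scarna13 the scaRNA sum was 51.5 and 125 CPM, a ratio of male to female mean of 2.42, against 1.75 with it.

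In male sample 1 long and short members lay apart. Relative to the mean of the other 5 samples, its CPM was 3.32-fold for Scarna6, 3.14-fold for Scarna10, 3.06-fold for Snora74a, 2.67-fold for Snord17 and 1.68-fold for Scarna2, but 1.11-fold for Scarna13. It was 0.162-fold for Snord116l2, 0.219-fold for Scarna3a, 0.266-fold for Snora81, 0.477-fold for Snora28 and 0.541-fold for Snord96a. A limit of 150 nt, chosen after the values were seen, left 8 long members (Scarna2, Scarna6, Scarna10, Scarna13, Snord17, Snora23, Snora74a and Snora81) and 99 short ones. The long ones summed to 245, 174 and 182 CPM in females and 513, 308 and 231 in males. The short ones summed to 136, 106 and 103 CPM in females and 85.3, 155 and 124 in males. Male sample 1 was thus the highest sample for the long sum and the lowest for the short one.

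The same held member by member. In male sample 1, 7 of 8 long members were above their own mean over the 6 samples, on the scale of log2(CPM + 0.5), with a median deviation of 1.08, and Snora81 was the exception. Of the 60 tested short members 45 were below their mean in male sample 1, with a median deviation of -0.36. In male sample 2 44 of 60 were above their mean, with a median of 0.34. Such shares were not computed over all tested IDs, so these counts do not set the members apart from other IDs of low count. Male sample 2 was the highest sample for 25 of 60 short members (41.7%), against 14.3% of all tested IDs, and male sample 1 the lowest for 21 (35.0%, against 25.3%). The Spearman correlation of length with deviation over 62 tested members with a GENCODE length was 0.46 for male sample 1, against -0.15 to -0.09 for the other 5, a description, since the members share libraries and lengths fall into classes. The other 15 short members were not below it. The highest of them in male sample 1 relative to the other samples was Snord118, the U8 RNA needed for large ribosomal RNA maturation. It has 135 nt and no host gene, and had 33 counts there and 3 to 16 elsewhere (3.44-fold). Snora61 (2.17-fold), Snora5c (1.60-fold) and Snora3 (1.59-fold) followed. These 4 were singled out after their values were seen. The part of ribosomal RNA share, zeros and other cell types of male sample 1 in these values was not tested.

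**Figure D3:**
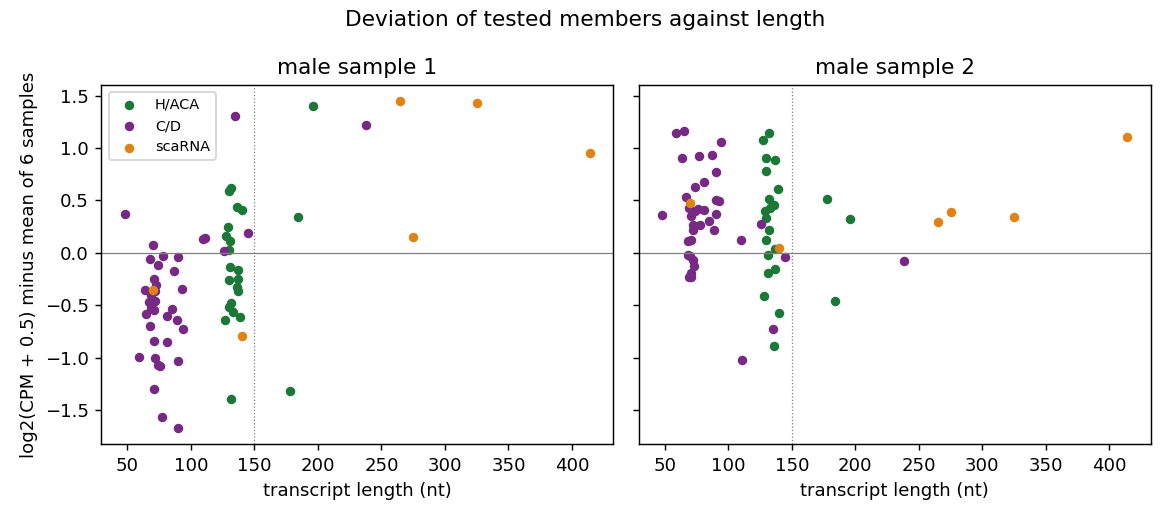
Deviation of each of the 68 tested members in male sample 1 (left) and male sample 2 (right), as log2(CPM + 0.5) minus the mean of the 6 samples, against annotated length in nt; colours give the class and the dotted line is at 150 nt. In male sample 1 most short members lie below 0 and 7 of 8 long ones above it, while in male sample 2 most short members lie above 0.

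The share of each class's counts held by the member of highest mean CPM set the same sample apart. Snora74a held 78.3% of the H/ACA counts of male sample 1, against 30.7% to 52.1% for other samples. Snord17 held 69.6% of the C/D counts there and 29.0% to 41.6% elsewhere. Scarna13 held 28.4% of the scaRNA counts there, where Scarna10 held more (45.3%), and 41.2% to 62.5% elsewhere. The 3 values of male sample 1 lay outside the range of all other samples.

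Spread between samples of 1 sex was measured as the pooled within-sex CV (the SD within a sex over the mean of all samples) for the 18 members with a mean of 20 or more counts. The median CV was 0.522 for 6 H/ACA, 0.328 for 8 C/D and 0.444 for 4 scaRNAs, against 0.149 for all IDs of that mean. Counting error alone would give 0.185, 0.166, 0.064 and 0.0588, so the CV was 3.19, 1.96, 6.04 and 2.46 times the counting part at the median. This ratio rises with depth, and the H/ACA and C/D members are counted at far lower depth than IDs in general, so it does not rank the classes. Within classes the spread was uneven. Snora23 (0.719), Scarna6 (0.674) and Snora28 (0.638) varied most, and Snord15b (0.099, named after its value was seen), Snord22 (0.167), Snora78 (0.172) and Scarna13 (0.180) least. With male sample 1 left out Snora23 was at 0.786 and Snora28 at 0.566, but Scarna6 was at 0.325, Snord17 at 0.338, Snora74a at 0.240 and Scarna10 at 0.161, below Scarna13 at 0.212. Scarna6, Snord17, Snora74a and Scarna10 thus all had far lower CVs without that sample, and of these Scarna6 and Snord17 stayed above the medians of their classes. Scarna2 rose from 0.346 to 0.443. The class medians without it were 0.329 for H/ACA, 0.234 for C/D and 0.269 for scaRNAs.

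**Figure D4:**
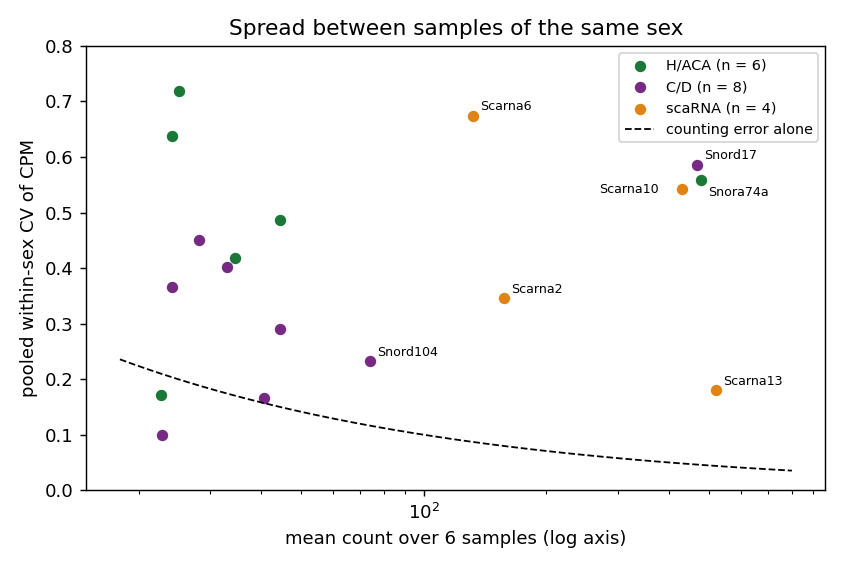
Pooled within-sex CV of CPM against mean count over 6 samples (log axis) for the 18 members with a mean of 20 or more counts, coloured by class; the dashed line is counting error alone. Snord17, Snora74a and Scarna10 lie at 0.543 to 0.586 where counting error is below 0.05, and Scarna13 at 0.180. Without male sample 1, which is not drawn separately, Snord17 is at 0.338, Snora74a at 0.240, Scarna10 at 0.161 and Scarna13 at 0.212.

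The hosts of Scarna10 and Snora74a did not share the pattern of their guides. Ncapd2, a condensin subunit gene that holds Scarna10, had 329 to 369 CPM in females and 309 to 331 in males, with a log2 fold change of -0.10 (SE 0.11), and male sample 1 was at 0.955-fold of the others where Scarna10 was at 3.14-fold. Snhg4, which holds Snora74a, had 14.3 ± 3.70 CPM in females and 14.3 ± 2.31 in males (log2 fold change -0.01, SE 0.24), and male sample 1 was at 0.785-fold. Of the named guides lowest in male sample 1, Snord116l2, Snord64, Snora81 and Scarna9 had hosts that were low there too. Snhg14, the host of Snord116l2 and Snord64, had 166, 141 and 109 CPM in females and 63.0, 165 and 157 in males. Eif4a2, the host of Snora81, had 25.7, 20.1 and 24.2 CPM in females and 12.3, 46.8 and 36.95 in males. Cep295, the host of Scarna9, was at 0.626-fold in male sample 1, where Scarna9 was at 0.661-fold. The hosts of Snord96a and Snora28 were not low there. Male sample 1 was at 1.54-fold for Rack1, where Snord96a was at 0.541-fold, and at 1.40-fold for Eif5, where Snora28 was at 0.477-fold. The Rack1 levels of 1277 ± 90.3 and 1822 ± 335 CPM gave a log2 fold change of 0.51 (SE 0.14, edgeR adjusted p = 0.338).

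Other hosts of named members were Snhg10 (Scarna13; 2.05 ± 0.40 and 3.70 ± 1.10 CPM, log2 fold change 0.84, SE 0.43), Snhg1 (Snord22; 0.29, SE 0.20), Rpl12 (Snora65; 0.55, SE 0.26), Eif5 (Snora28; 0.58, SE 0.43) and Cep295 (Scarna9; -0.37, SE 0.15). None passed the edgeR test. The hosts Snx5 (Snord17), Atg16l1 (Scarna6), Snhg9 (Snora78) and Cop1 (Scarna3a) had 0 to 12 counts on the transcript ID read in any sample (for Snx5 the higher of its 2 IDs), too few to set beside their guides, and the hosts of Snora23 and Snord104 were not analysed here. Over all members, 92 had a host in the tables, with 67 different hosts. Of the 43 tested hosts of tested members 0 were called by edgeR, and at an unadjusted p under 0.05 there were 11 with higher values in males and 4 in females, where 11.5% of all tested IDs were at that level and 6.68% had higher values in males. Over 55 pairs of tested member and host the log2 fold changes had the same sign in 31, with a Spearman correlation of 0.07, a description since several members share a host. In GENCODE, Snora81, Snord96a, Snora65 and Snord22 lie in an exon of their hosts. A read in an exon that holds a snoRNA could count for either, and how such reads were assigned is not stated.

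The proteins that build and carry these RNAs were read from lists. Of the 5 C/D core protein genes none was called by edgeR, and at an unadjusted p under 0.05 there were 2 with higher values in males, Snu13 (87.6 ± 9.07 and 112 ± 23.8 CPM, log2 fold change 0.35, SE 0.16) and Rrp9 (0.43, SE 0.18). Fbl, the methyltransferase, had 6.48 ± 1.18 and 9.26 ± 1.43 CPM (0.49, SE 0.27), and Nop58 had 173 ± 7.07 and 154 ± 7.06 (-0.17, SE 0.12). Of the 4 H/ACA core genes 3 were tested and none called. Nop10 had 56.0 ± 10.5 CPM in females and 90.8 ± 12.9 in males with no overlap (0.69, SE 0.16, edgeR adjusted p = 0.338), while Gar1 was at -0.07 and Nhp2 at 0.25. Dkc1, the pseudouridine synthase gene, was not tested. Its 2 transcript IDs in the tables had 0 to 2 counts a sample, and counts per transcript ID are no measure of the level of the whole gene.

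Of 14 assembly and Cajal body genes 13 were in the tables and 11 were tested, with none called by edgeR. At an unadjusted p under 0.05 Coil, which encodes the Cajal body scaffold coilin, had higher values in males (39.9 ± 4.14 and 52.3 ± 7.91 CPM, log2 fold change 0.39, SE 0.16), and Tgs1, the cap hypermethylase, in females (121 ± 11.4 and 91.7 ± 16.6 CPM, -0.40, SE 0.15). Wrap53, which binds the CAB box, had 23.7 ± 4.41 and 29.9 ± 4.37 CPM (0.32, SE 0.19). The median over the list was 0.08. Of 20 non-coding host genes 19 were in the tables and 17 were tested, with none called and 1 at an unadjusted p under 0.05, Zfas1 (31.1 ± 4.24 and 40.9 ± 5.83 CPM, 0.39, SE 0.17), and with a median of -0.03. Against 11.5% of all tested IDs at that level, these are 2 of 5, 1 of 3, 2 of 11 and 1 of 17 genes. The summed level of the C/D, H/ACA and assembly lists was highest in male sample 1 (345, 194 and 564 CPM), and that of the non-coding hosts was lowest there (1362 CPM, against 1637 to 2005 in the others). The latter sum is mostly Rian, with means of 1337 CPM in females and 1282 in males, and does not describe each host.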

How the data were processed

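Total RNA of the pooled brains was made into stranded, paired-end libraries, per the title, the labels and the paper's methods. The series' design text speaks instead of small RNA, and the tables, which are dominated by mRNA IDs, were read as total RNA. Per the paper's methods and the submitters' processing notes, the authors trimmed reads with Trimmomatic 0.32, aligned them to mm9 with TopHat2 2.1.1, merged Cufflinks 2.2.1 transcripts and counted with featureCounts 1.5.1. The values deposited by the authors are raw counts per RefSeq transcript ID. How strand, multiply aligned reads and overlapping features were treated is not given in the sources used here, so counts of members that overlap host exons or have close copies are uncertain.

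IDs were named from a RefSeq gene table (GRCm38.p6, used for names, lengths and hosts), which matched 23359 of 23485. Loci and sequences came from GENCODE vM1 on NCBIM37. edgeR 4.0.16 (R 4.3.3) fitted the 13374 IDs that reached 10 counts in any sample, with TMM factors (0.940 to 1.03), and members were read from that fit. The script was tested on simulated data. Alternatives were other scalings, filters, DESeq2 1.42.0, 1 RUVr factor (the leading singular vector of edgeR deviance residuals), a replicate block and leaving out each sample. The labels do not say that same-numbered samples were paired, so the main fit had no block. Nothing says whether pools shared litters, and p-values measure the spread between these samples.

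Members named were those called, the 6 of highest mean CPM per class among tested ones, and the 5 largest differences in each direction among members with a mean of 20 or more counts. Others are said to have been singled out. Members and lists were chosen with earlier results of these data known. In addition, 10 snoRNA or guide RNA IDs with other symbols lie outside the rule. Xist, Ddx3y and Kdm5d were read as a check of sex. No sequence is printed for Snora74a, and members without a GENCODE locus of the same symbol have none.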

Additional observations from a re-analysis of the deposited data

How the results depend on the processing

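The number of members called by edgeR was 0 with every sample left out in turn, with the other scalings and with the stricter filters. It was 5 with no filter on low counts (Scarna10, Scarna2, Scarna6, Snora74a and Snord17), and 1 (Scarna10) with DESeq2 and, once 1 RUVr factor was added, with either tool. At an unadjusted p under 0.05 there were 4 members, 7 with no filter, and 3 to 7 with a sample left out, the 7 without female sample 1. The median scaRNA log2 fold change of 0.64 was 0.26 with no filter, 1.19 with 10 counts in every sample, 1.03 with filterByExpr, and 0.38 (without male sample 1) to 1.26 (without female sample 1) with a sample left out. The C/D median of 0.11 ran from -0.10 to 0.24 with a sample left out, and was -0.05 (DESeq2) and -0.026 (edgeR) with 1 RUVr factor, and the H/ACA median of 0.11 was -0.045 with filterByExpr. Class sums without their top transcript were 46.7 (female) and 47.3 CPM (male) for H/ACA, 75.6 and 77.3 for C/D and 51.5 and 125 for scaRNAs. The scaRNA spread was 0.269 to 0.503 with a sample left out, lowest without male sample 1. The cause of these shifts was not tested, beyond the number of transcripts that each filter left.

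The 18 named members had 265 log2 fold changes over the other fits, of which 252 kept their sign. These values share fits and libraries. The largest value of changed sign was -0.63 (SE 0.54), for Snora28. Snord22 was -0.034 with upper-quartile factors. With a sample left out the values ran over 0 for Scarna9 (-0.0403 to 0.45), Snora28 (-0.63 to 0.51), Snora65 (-0.0137 to 0.77), Snora78 (-0.17 to 0.13), Snord104 (-0.21 to 0.24), Snord116l2 (-0.79 to 0.10), Snord17 (-0.0454 to 0.93), Snord22 (-0.12 to 0.18), Snord64 (-0.18 to 0.35) and Snord96a (-0.10 to 0.54).

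Replicate numbers are shared between the sexes. Same-numbered samples did not deviate together over IDs (correlations of -0.29, -0.06 and -0.20). With 3 samples a sex this cannot show whether same-numbered samples shared a batch, which was not tested. The ribosomal RNA share was largest in sample 1 of each sex (2.5% in female sample 1 and 4.26% in male sample 1). With the replicate block 0 members were called, 5 were at an unadjusted p under 0.05, and Snora28 was -0.0142. Depth limits the low members: 39 of 107 had at most 9 counts in any sample and entered only the fit with no filter, which called none of them.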
